A study of Mus musculus with 5 samples.

Results

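The cytosolic ribosomal protein genes are the genes of the proteins that, with ribosomal RNA, build the ribosome of the cytoplasm. They were taken from the expression matrix of the corpus callosum cells by name, as all rows whose symbol begins with Rpl or Rps and a digit, or with Rplp or Rpsa, leaving out the S6 kinases (Rps6k) and rows marked as pseudogenes. The rule used names and not values, but it was set with earlier results of these data known. It found 84 of 11733 genes. Of these, 77 are canonical ribosomal proteins, with 43 of the large subunit, 31 of the small subunit and the 3 proteins of the acidic stalk. The other 7 are 6 paralogs or retrocopies of canonical genes (Rpl22l1, Rpl36al, Rpl6l, Rpl7l1, Rps27l and Rps27rt) and Rps19bp1, which matches by name but encodes a nucleolar binding partner of Rps19.

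The cells were oligodendrocyte (OL) lineage cells of the corpus callosum of 2 mice at postnatal day 60, pooled before dissociation. The mice carried Emx1::Cre, Sox10::Cre and a LoxP-GFP-STOP-TdTom reporter, so that OL lineage cells derived from the dorsal, Emx1-expressing domain are TdTom+ and those of ventral origin are GFP+. Both kinds were sorted from the same pooled tissue after removal of myelin debris, and 1 library of 3′ ends was made from each. Both libraries therefore share mice, alleles and age, and neither has a replicate.

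With few exceptions a ribosome holds a single copy of every ribosomal protein, and cells keep the synthesis of these proteins in step. The mRNAs of nearly all of them begin with a terminal oligopyrimidine (TOP) tract, a C followed by a run of pyrimidines, through which growth signals set how strongly they are translated. In the OL lineage the demand on translation changes as precursors (OPC) become committed precursors and newly formed cells (COP/NFOL), myelin-forming cells (MFOL) and mature oligodendrocytes (MOL), which make large amounts of myelin protein and lipid.

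The start sites of the genes that the results below turn on are shown first, since the TOP tract is the sequence this group has in common. Each line gives 15 bases before and 15 bases from the annotated start, on the strand of the gene, from RefSeq on GRCm38.p6. Capitals mark the longest run of a C followed by at least 6 C or T, and a line without capitals holds no such run.
Rps6 (chr4:86857353-86857382, minus): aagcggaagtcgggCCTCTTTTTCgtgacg
Rps9 (chr7:3704026-3704055, plus): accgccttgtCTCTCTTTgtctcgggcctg
Rps18 (chr17:33955651-33955680, minus): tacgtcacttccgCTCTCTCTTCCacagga
Rps27 (chr3:90213634-90213663, minus): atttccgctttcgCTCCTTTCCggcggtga
Rpl35 (chr2:39005117-39005146, minus): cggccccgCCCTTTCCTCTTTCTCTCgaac
Rpl15 (chr14:18270972-18271001, minus): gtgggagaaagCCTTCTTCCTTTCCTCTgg
Rpl27a (chr7:109519180-109519209, plus): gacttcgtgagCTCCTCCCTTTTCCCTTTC
Rpl13 (chr8:123102335-123102364, plus): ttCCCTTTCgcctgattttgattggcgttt
Rpl18 (chr7:45718056-45718085, plus): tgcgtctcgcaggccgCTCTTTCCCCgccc
Rps12 (chr10:23787195-23787224, minus): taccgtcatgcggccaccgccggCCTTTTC
Rps3 (chr7:99483695-99483724, minus): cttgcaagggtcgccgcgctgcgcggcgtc
Rps27rt (chr9:114982725-114982754, minus): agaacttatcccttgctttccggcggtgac
Rpl7l1 (chr17:46782642-46782671, minus): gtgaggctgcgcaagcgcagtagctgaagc
Rps19bp1 (chr15:80264292-80264321, minus): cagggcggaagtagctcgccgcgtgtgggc

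The run spanned the start in Rps6, Rps9, Rps18, Rps27, Rpl35, Rpl15 and Rpl27a, while the windows of Rps3, Rps27rt, Rpl7l1 and Rps19bp1 held none. Among the 57 canonical members that the RefSeq table holds, 29 had the run in this window (50.9%), against 16.4% of all 27025 genes of the table and 19.4% of those at 50 CPM or more (a gene's UMIs, or counted mRNA molecules, scaled to a library of 1000000). Of the 6 paralogs and other name matches with an entry, 2 had it. The search used only the strand of the gene, a gene with several annotated starts was counted if any held the run, and 21 members had no entry. A missing run means only that these letters are absent from this window.

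The libraries held 1901 TdTom+ and 952 GFP+ cells, with 7129294 and 3584940 UMIs in all. A median cell had 3340 UMIs in the former and 3307 in the latter. The 12 deposited population labels were checked against fixed marker lists. The summed OPC markers (Pdgfra among them) were highest in OPC, those of COP/NFOL in COP/NFOL, of MFOL in MFOL1, of MOL1 in MOL1, of MOL2 in MOL2/4 and of MOL5/6 in MOL6a. All 6 microglial markers were rows of the matrix, and their summed level ran from 0 to 2.02 CPM in 11 labels and was 381 CPM in MFOL2, where 84 of the UMIs came from 1 TdTom+ cell. One barcode sequence occurred in both libraries. The labels came from clustering these same cells and each library is 1 sample, so comparisons below are given without a test. Intervals are at 95% and cover counting error only.

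Ribosomal proteins were among the most abundant transcripts of these cells. In the TdTom+ library the 84 genes made up 7.25% of all UMIs (interval 7.23% to 7.27%), and in the GFP+ library 7.06% (7.04% to 7.09%). They took 24 of the 100 highest places among all genes. Large subunit genes gave 3.78% and 3.68% of the UMIs of the TdTom+ and GFP+ libraries, small subunit genes 3.02% and 2.93%, and the stalk genes 0.359% and 0.352%.

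Single members ranged from 33.0 to 2339 CPM over both libraries, with a median of 881 CPM. These libraries count 3′ ends, at 1 UMI per captured mRNA, so the values were not divided by length. On this scale the highest level was that of Rpl41, which encodes a very small basic peptide of the large subunit. It was followed by Rps27 at 1692 CPM, Rps29 at 1560 CPM, Rpl13 at 1537 CPM and Rps27a at 1533 CPM. Rps27a is made as a fusion with ubiquitin. The lowest were Rpl7l1 at 33.0 CPM, Rps27rt at 35.3 CPM, Rpl6l at 58.4 CPM and Rps19bp1 at 63.9 CPM, all outside the canonical list. The lowest canonical member was Rpl15 at 178 CPM. The stalk genes stood close together, with Rplp0 at 1118 CPM, Rplp1 at 1297 CPM and Rplp2 at 1156 CPM. The other canonical members were less even, and 30 of the 84 genes exceeded 1000 CPM.

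The comparison of TdTom+ with GFP+ cells addressed whether dorsal and ventral origin leaves a mark on ribosomal protein expression. Most members differed little between the libraries. Of 84 members, 82 reached a mean of 50 CPM, and their log2 ratios of TdTom+ over GFP+ (with 1 CPM added) had a median of 0.04, beside 0.01 over all genes. A difference was called at an absolute log2 ratio of at least 0.25, which is 1.19-fold. By this rule 2 members were higher in TdTom+ cells (2.44% of the members) and 0 lower, with 2.7% of 2958 genes called higher and 2.57% called lower.

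The 2 called genes encode proteins of the large subunit. Rpl15 was at 194 CPM in TdTom+ cells against 145 CPM in GFP+ cells, a log2 ratio of 0.42 (interval 0.27 to 0.57). Rpl27a was at 394 and 314 CPM, a log2 ratio of 0.33 (0.23 to 0.43). Both were higher in the TdTom+ cells of 10 of the 12 labels. Rps6, the small subunit protein that S6 kinase phosphorylates, followed at 832 and 732 CPM (log2 ratio 0.19, interval 0.12 to 0.25), also in 10 of 12 labels. At the other end Rpl18 was at 500 and 534 CPM, a log2 ratio of -0.10 (-0.18 to -0.02), and Rps29 at 1529 and 1622 CPM, a log2 ratio of -0.08 (-0.13 to -0.04). The intervals of 24 members lay above 0 and those of 3 below, with no count over all genes beside them. With the mix of labels set equal, the members' median log2 ratio was 0.004, beside 0.005 over all genes.

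**Figure D1:**
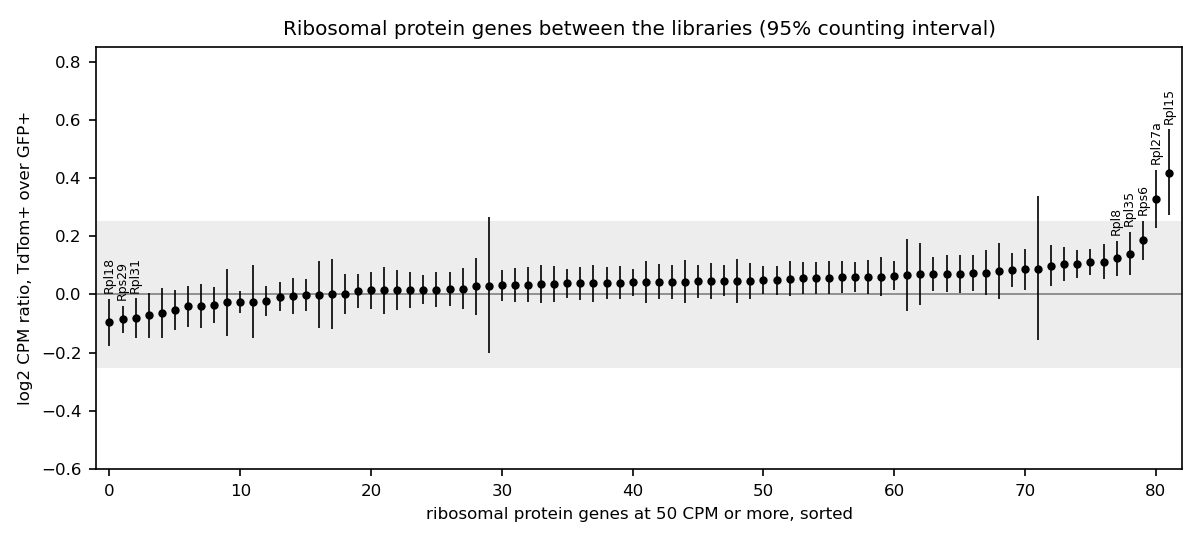
Each point is 1 of the 82 ribosomal protein genes at 50 CPM or more, sorted along the x axis, with its log2 CPM ratio of TdTom+ over GFP+ on the y axis and the 95% counting interval as a bar; the grey band marks ratios under 0.25. Rpl15 and Rpl27a are the 2 genes above the band, and the others form a flat series around a median of 0.04.

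The small surplus of the summed members in the TdTom+ library, a log2 ratio of 0.04, moved with the mix of cells. Without the MOL2/4 cells, which numbered 60 in the TdTom+ library (of 1901) and 63 in the GFP+ library (of 952), the members took 7.36% of the UMIs of both libraries. Within labels the summed ratio was above 0 in 5 and below 0 in 7, with intervals above 0 in 4 and below 0 in 4. The largest differences were in COP/NFOL, at -0.84 (-0.90 to -0.79), and in MOL2/4, at 0.32 (0.27 to 0.38).

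Across the 12 labels the share of ribosomal protein UMIs was low in one and similar in the rest. MOL2/4 cells had 2.68% (2.63% to 2.73%) in both libraries together, 3.01% in TdTom+ and 2.41% in GFP+ cells. The next label, MFOL1, had 6.53%, followed by OPC at 6.70%, MOL1 at 6.96%, MOL2b at 6.98%, MOL2/MFOL at 7.04%, MOL2a at 7.33%, MOL6a at 7.55%, MFOL2 at 7.76%, COP/NFOL at 7.98%, MOL4-5/6 at 8.22% and MOL6b at 8.30%. The intervals of MOL1 (6.90% to 7.02%) and MOL2b (6.94% to 7.02%) overlapped, as did those of MOL2b and MOL2/MFOL (6.99% to 7.09%), of MFOL2 (7.65% to 7.88%) and COP/NFOL (7.84% to 8.12%), and of MOL4-5/6 (8.17% to 8.27%) and MOL6b (8.25% to 8.34%). Between the other neighbours they did not overlap. MOL2/4 was the lowest label in each library, whereas COP/NFOL was the second lowest label in the TdTom+ and the highest in the GFP+ library.

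**Figure D2:**
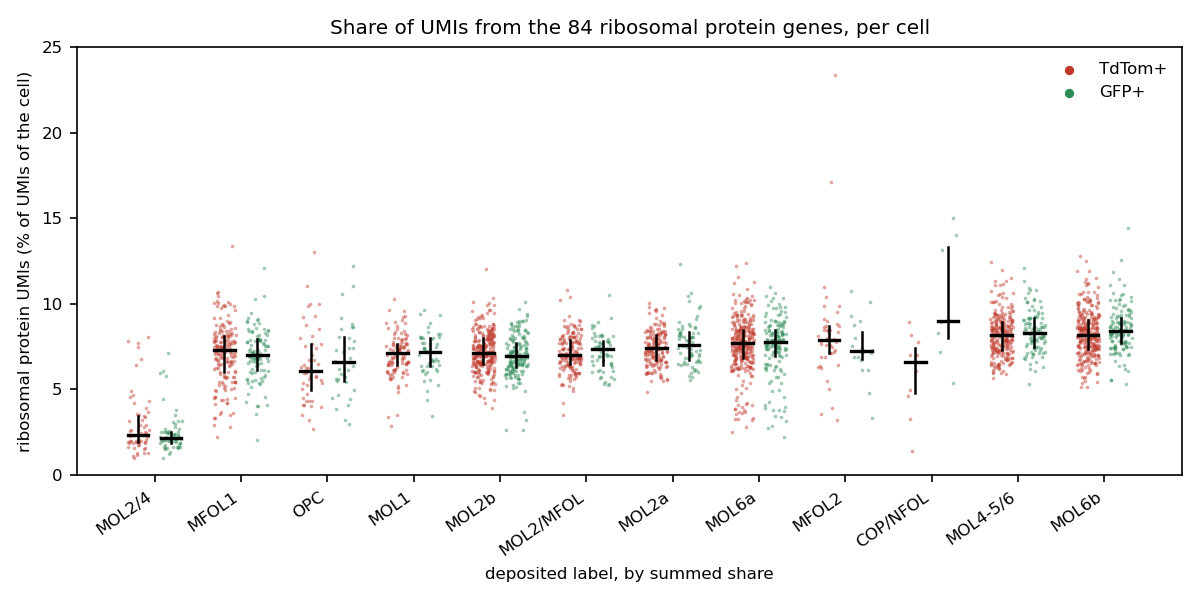
Each point is 1 cell, placed by its deposited label on the x axis (ordered by summed share) and coloured by library, with the percent of its UMIs from the 84 ribosomal protein genes on the y axis; black lines show the median and quartiles. MOL2/4 cells lie apart at medians of 2.32% (TdTom+) and 2.15% (GFP+), COP/NFOL cells differ between the libraries, and 1 MFOL2 cell stands at 23.3%.

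MOL2/4 was also the lowest label for 82 of the 84 members taken singly, and for 76 of the 77 canonical ones. Neither these counts nor those of the highest label, which follow, have a count over all genes beside them. The highest label differed between the libraries. In TdTom+ cells it was MOL6b for 22 members, MOL4-5/6 for 20, MFOL2 for 14, and OPC and COP/NFOL for 10 each, whereas in GFP+ cells it was COP/NFOL, with 8 cells, for 60 and MOL6b for 10. Without the TdTom+ cell with 84 microglial UMIs, MFOL2 was the highest label for 8 members. The range of a member's log2 level over the 12 labels had a median of 1.85, beside 1.58 over all genes of at least 50 CPM. MOL2/4 and COP/NFOL held much of that range. Over the other 10 labels, a choice made after the values were seen, the median was 0.51, beside 1.11 over all genes of at least 50 CPM. The widest canonical ranges over the 12 labels were those of Rpl10a at 2.92, Rps28 at 2.90 and Rpl13 at 2.78. The narrowest was that of Rpl18, at 0.66. Over the 10 labels the narrowest range was that of Rps18 at 0.26, with Rps9 at 0.30, both of the small subunit, and the widest were Rpl7l1 at 2.49, Rpl13 at 1.87 and Rps19bp1 at 1.56.

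**Figure D3:**
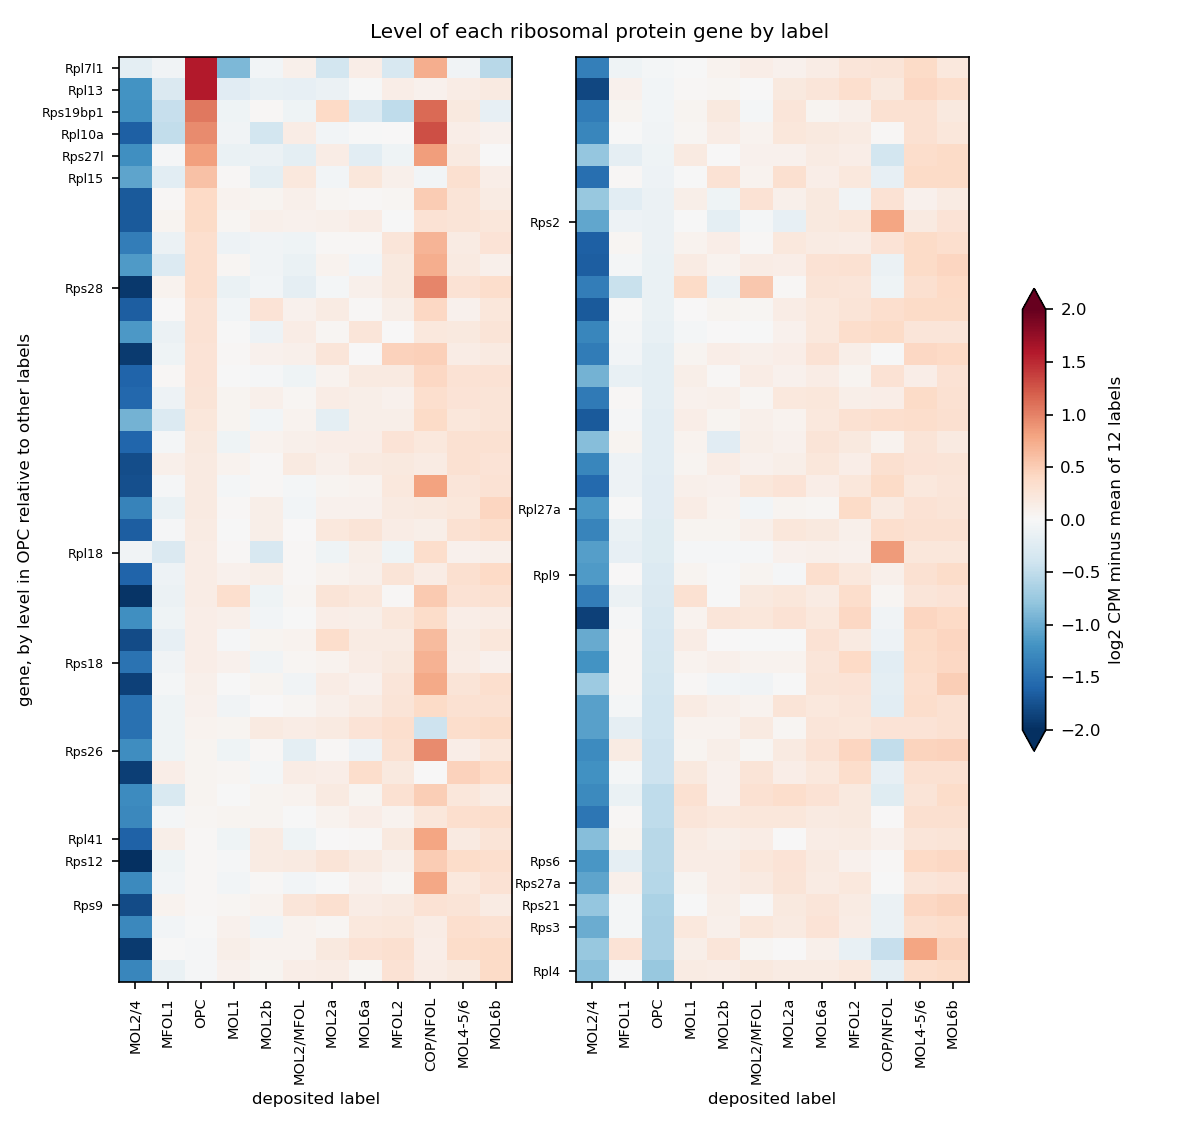
Rows, in 2 panels, are the 84 ribosomal protein genes, ordered by their level in OPC relative to the other labels, and columns the 12 deposited labels ordered by summed share; colour gives log2 CPM minus the mean of the gene's 12 labels, with 1 value past the colour limit of 2, and some of the genes named in the text are marked at the side. MOL2/4 is low for almost every gene, while Rpl13, Rpl7l1, Rps19bp1, Rpl10a and Rps27l stand out as high in OPC.

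MOL2/4 cells, which had the highest summed level of the MOL2 markers (Klk6 among them), were compared with the other MOL2 labels (MOL2/MFOL, MOL2a and MOL2b). Their summed MOL5/6 markers, at 3836 CPM, were also above those of the other MOL2 labels (823 to 2222 CPM), and MOL2/4 was grouped with MOL2 by its name. This comparison was added after the shares per label were seen, so its values are a description of a label picked for its low level. Between labels a gene was called at an absolute log2 ratio of at least 0.5, or 1.41-fold, in both libraries with the same sign. Of 80 members at 50 CPM or more, 79 were lower in MOL2/4 (98.8%) and 0 higher, with 23% of 2873 genes called lower and 11.7% higher. The summed level was lower by a log2 ratio of -1.24 in TdTom+ and -1.54 in GFP+ cells. The large subunit (-1.25 and -1.58), the small subunit (-1.26 and -1.51) and the stalk (-1.16 and -1.32) were lower to a like degree.

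Rps12, a small subunit protein, was at 142 CPM in MOL2/4 and 561 CPM in the other MOL2 labels of the TdTom+ library, and at 96.2 and 512 CPM in the GFP+ library. Its log2 ratios were -1.97 (-2.60 to -1.42) and -2.40 (-3.11 to -1.79). Rpl35a and Rps24, both of them genes mutated in Diamond-Blackfan anaemia, were at log2 ratios of -1.79 and -2.19, and of -1.74 and -2.53. Rpl37a followed at -1.76 and -1.78, and Rps3a1 at -1.73 and -2.13. The least lowered of the called members included Rps15, at -0.77 and -0.57, Rpl8 at -0.81 and -0.79, and Rps21 at -0.83 and -0.96.

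Rpl18 was the exception. This large subunit gene was at 493 CPM in MOL2/4 and 474 CPM in the other MOL2 labels of the TdTom+ library, and at 508 and 463 CPM in the GFP+ library. The log2 ratios were 0.06 (-0.27 to 0.37) and 0.13 (-0.17 to 0.43). Relative to the summed members it was higher by 1.30 and 1.67, and its part of all ribosomal protein UMIs was 1.64% and 2.11% in MOL2/4, against 0.664% and 0.662% in the other MOL2 labels. Its locus (chr7:45715457-45720836 on GRCm38) overlaps Sphk2 on the opposite strand.

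Among other gene lists, of 21 translation factors and other genes known for a TOP tract, 13 were lower and 0 higher, with medians of -0.63 and -0.96. Tpt1, a growth-related TOP gene, was at -1.68 and -2.16, whereas the elongation factor Eef2 was at -0.23 and -0.46. Of 36 mitochondrial ribosomal proteins 19 were lower and 0 higher (medians -0.61 and -0.75), and of 68 nuclear genes of the respiratory chain 31 were lower and 1 higher (medians -0.58 and -0.81). All genes had medians of -0.14 and -0.18. In the other direction, 4 of 7 genes of the mitochondrial genome were higher and 0 lower (0.70 and 0.71), and 13 of 23 genes of folding and translocation at the endoplasmic reticulum (ER) were higher and 2 lower. That ER list was written after values had been seen. The disulfide isomerase Pdia3 was at 2.07 and 1.93, and Derl1, of ER-associated degradation, at 1.39 and 1.75. The 2 lower genes were the small translocon subunits Sec61g (-1.88 and -1.88) and Sec61b (-1.46 and -1.66).

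**Figure D4:**
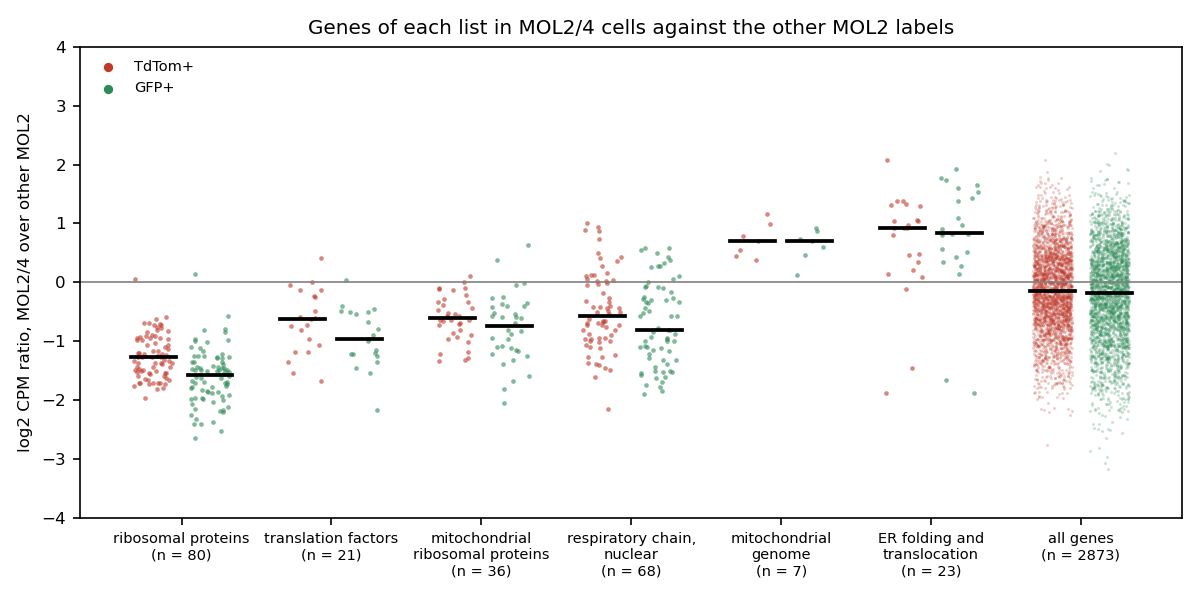
Each point is 1 gene of at least 50 CPM, in 7 groups along the x axis, with its log2 CPM ratio of MOL2/4 over the other MOL2 labels on the y axis, coloured by library; black bars are medians. The 80 ribosomal protein genes lie lowest, at medians of -1.27 (TdTom+) and -1.58 (GFP+), and the groups of the mitochondrial genome and of ER folding lie above 0.

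Transcript length moved with this contrast. The median annotated length was 704 bases for the members and 1763 bases for the other genes tested. Among genes that are no members, those of up to 500 bases had medians of -0.54 and -0.81, those of 700 to 1000 bases -0.24 and -0.37, and those of 2500 to 4000 bases 0.00 and -0.05. The 14 members of up to 500 bases had medians of -1.32 and -1.72, and the 26 members of 700 to 1000 bases -1.26 and -1.55, below the other genes of the same length. Canonical members with the pyrimidine run anywhere in the window around the start had medians of -1.26 and -1.49, and those without it -1.36 and -1.65.

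The low level was a property of most MOL2/4 cells and of few others. A share under 4% was found in 107 of 123 MOL2/4 cells and in 60 of 2730 cells outside that label, of which 25 were in MOL6a and 12 in MFOL1. In MOL2/4 the median depth was 3043 UMIs, against 3977 to 4086 in the other MOL2 labels, and the mitochondrial genome took 2.04% of UMIs, against 1.09% to 1.31%. In the 60 cells outside MOL2/4 the mitochondrial genome took 1.71%, against 1.36% in the cells above the limit, nuclear respiratory chain genes took 1.74% against 2.26%, and ER folding genes 0.341% against 0.263%. The part of depth and of the mitochondrial share in the low ribosomal protein level was not tested. The 16 MOL2/4 cells above the limit had 231 CPM of Klk6, against 1736 CPM in the 107 below it. Outside MOL2/4 Klk6 went the other way, at 117 CPM in the 60 low cells and 150 CPM in the others. Inside MOL2/4 the ER folding genes took 0.437% of UMIs in the low cells and 0.429% in those above the limit.

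Between the merged mature labels the differences were small and one-sided. No member passed the limit in MOL2 against MOL5/6 in either direction, with 5.26% of 2906 genes called higher and 3.44% lower. Yet 80 of 82 members, and 77 of 77 canonical ones, were below 0 in both libraries, as were 39.8% of all genes. The medians were -0.21 in TdTom+ and -0.33 in GFP+ cells, beside -0.00 and -0.02 over all genes. Without the MOL2/4 cells 75 of 82 members were below 0 in both libraries, with medians of -0.15 and -0.19. Rps2 was at 893 CPM in MOL2 and 1191 CPM in MOL5/6 of the TdTom+ library and at 846 and 1144 CPM in the GFP+ library, log2 ratios of -0.42 (-0.49 to -0.34) and -0.43 (-0.55 to -0.32). Rpl9 was at -0.41 and -0.42, Rps3a1 at -0.40 and -0.53, and Rps15 at -0.39 and -0.59. Rps9, by contrast, was at -0.10 and -0.09.

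MFOL cells against MOL cells had 0 members called, with 3.96% of 2880 genes higher and 5.52% lower. The medians of the members were -0.16 and -0.09, beside -0.07 and -0.04 over all genes. In both libraries 69 of 82 members were below 0, as were 44.4% of all genes. Rps6 was among the lowest, at 672 CPM in MFOL and 870 CPM in MOL of the TdTom+ library and at 624 and 759 CPM in the GFP+ library (log2 ratios -0.37 and -0.28). Rpl41 was the highest, at 0.08 and 0.10. The MFOL2 label included the cell with 84 microglial UMIs. That cell had the highest ribosomal protein share of all cells, 23.3% of 4131 UMIs, ahead of 17.1% in the next, and MFOL2 without it was at 7.47%. MOL1, the label marked by Egr2 and Fosb, also had 0 members called against MOL2 and MOL5/6, with 2.92% of 2908 genes higher and 0.928% lower. Its members' medians were -0.09 and -0.01, and the named genes ran from Rps29 at -0.19 and -0.30 to Rpl12 at 0.25 and 0.20.

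The 48 TdTom+ and 35 GFP+ OPC had a summed log2 ratio of -0.14 and -0.08 against the MOL cells of their library. Of 83 members tested, 5 were higher in both libraries (6.02%) and 9 lower (10.8%), with 37.7% of 3768 genes called higher and 16.4% lower. The members' medians were -0.18 and -0.10, whereas those of all genes were 0.42 and 0.42, those of 49 mitochondrial ribosomal proteins 0.49 and 0.46, and those of 14 ribosome biogenesis genes 0.72 and 0.71. With edgeR's TMM scaling, which moved the median of all genes by -0.80 and -0.85, the summed ratios were -0.85 and -0.84, and 2 members were higher and 64 lower, with 15.5% of all genes higher and 37.2% lower. Directions for single genes are therefore also given relative to the summed members, a value that no scaling alters.

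Rpl13, a large subunit protein, stood out. It was at 4669 CPM in OPC and 1505 CPM in MOL cells of the TdTom+ library, and at 4637 and 1415 CPM in the GFP+ library. The log2 ratios were 1.63 (1.52 to 1.74) and 1.71 (1.58 to 1.85), and relative to the summed members 1.77 and 1.79. It made up 6.97% and 6.91% of the ribosomal protein UMIs of OPC, and 2.04% and 2.00% of those of MOL cells. All 48 and all 35 OPC held Rpl13 UMIs, with medians of 15 and 14 per cell, against 5 and 5 in MOL cells, although OPC were shallower (medians of 2909 and 2837 UMIs, against 3315 and 3299). In the other 11 labels it ran from 685 to 1738 CPM in the TdTom+ and from 673 to 2167 CPM in the GFP+ library, so OPC did not overlap with any of them. The gene (chr8:123102350-123105244 on GRCm38, plus strand) hosts the small nucleolar RNA Snord68 and overlaps the predicted gene Gm20388 on the same strand, so its reads could be shared with that model.

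The other higher members were less abundant. Rpl10a, of a mobile protuberance of the large subunit, was at 516 CPM in OPC and 255 CPM in MOL cells of the TdTom+ library and at 498 and 242 CPM in the GFP+ library, log2 ratios of 1.02 (0.68 to 1.34) and 1.04 (0.62 to 1.44). Rps27l, the paralog of Rps27 that p53 induces, was at 380 and 214 CPM and at 408 and 201 CPM (0.83 and 1.01). Rps19bp1 was at 148 and 64.3 CPM and at 118 and 61.6 CPM (1.19 and 0.92), with a lower bound of -0.00 in GFP+ cells. Rpl7l1, a paralog of Rpl7, was at 96.7 and 31.0 CPM and at 118 and 30.1 CPM (1.61 and 1.93), on 15 and 13 UMIs. Relative to the summed members all 4 were higher by between 0.97 and 2.01, and Rpl15, at 0.76 and 0.53, was past the limit as well. With TMM scaling Rpl13 (0.92 and 0.95) and Rpl7l1 (0.91 and 1.18) were past the limit, whereas Rpl10a was at 0.30 and 0.27, Rps27l at 0.12 and 0.25, and Rps19bp1 at 0.49 and 0.17.

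The 9 lower members were Rpl3, Rpl4 and Rpl14 of the large subunit, the stalk protein Rplp0, and Rps3, Rps6, Rps10, Rps21 and Rps27a of the small subunit. Rps3, which lies at the mRNA entry of the small subunit, was at 593 CPM in OPC and 1063 CPM in MOL cells of the TdTom+ library and at 571 and 1020 CPM in the GFP+ library, log2 ratios of -0.84 (-1.15 to -0.54) and -0.84 (-1.22 to -0.48). Rpl4, whose extension lines the exit tunnel, was at 516 and 907 CPM and at 398 and 886 CPM (-0.81 and -1.15). Rps21 was at -0.82 and -0.84, and Rps27a at -0.75 and -0.68. All 9 were among the 64 lower with TMM scaling. Relative to the summed members 7 were past the limit in both libraries, with Rps3 at -0.70 and -0.76 and Rpl4 at -0.68 and -1.08, and Rplp0 (-0.42 and -0.52) and Rpl14 (-0.45 and -0.45) were not. The summed level of 5 astrocyte markers was 403 CPM in OPC and 64.9 to 248 CPM in the other labels, and that of 3 neuronal markers 86.6 CPM against 0 to 40.8 CPM. Their part in the OPC values was not tested. Canonical members with the pyrimidine run had medians of -0.20 and -0.12 and those without it -0.11 and -0.04.

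**Figure D5:**
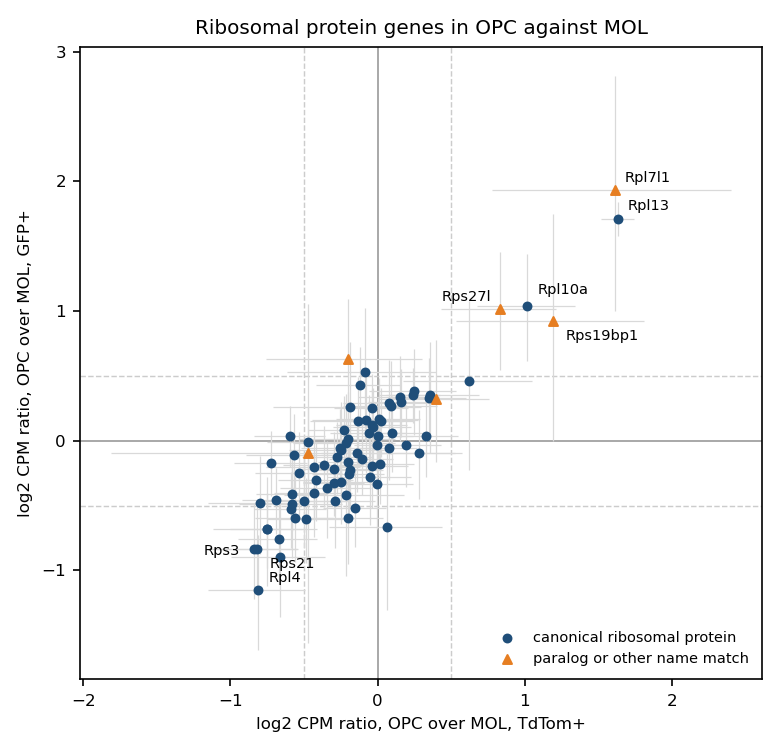
Each point is 1 of the 83 ribosomal protein genes at 50 CPM or more, with the log2 CPM ratio of OPC over MOL in TdTom+ cells on the x axis and in GFP+ cells on the y axis; grey bars are 95% counting intervals and dashed lines mark 0.5. Rpl13 (1.63 and 1.71), Rpl7l1, Rpl10a, Rps19bp1 and Rps27l lie at the upper right, apart from the other genes, and Rps3, Rps21 and Rpl4 at the lower left.

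COP/NFOL, with 11 TdTom+ and 8 GFP+ cells, gave opposite signs in the libraries. The members took 5.89% (5.73% to 6.06%) of the UMIs of the TdTom+ cells and 10.6% (10.3% to 10.8%) in the GFP+ cells, summed log2 ratios against MOL of -0.32 and 0.58, the second of which was -0.13 with TMM scaling. The mitochondrial genome took 0.861% of the UMIs of the TdTom+ and 1.35% of those of the GFP+ cells of this label, and its part in the difference was not tested. Single cells ran from 1.41% to 8.91% in TdTom+ and from 5.37% to 15.03% in GFP+, so the groups overlapped. Of 82 members, 5 were higher in both libraries (6.10%) and 0 lower, with 28.8% of 3420 genes called higher and 14.9% lower. The 5 were Rpl10a, Rps26, Rps27l, Rpl22l1 and Rps19bp1. With TMM scaling, which moved the median of all genes by -0.57 and -0.76, 1 member was higher, Rps19bp1, and 14 were lower. Relative to the summed members 9 were higher and 5 lower in both libraries, with Rpl10a at 1.28 and 1.21, Rps26 at 0.88 and 0.77, and Rpl22l1, at 0.98 and 0.31, not past the limit in GFP+ cells. Rpl10a was at 494 CPM in COP/NFOL and 255 CPM in MOL cells of the TdTom+ library and at 841 and 242 CPM in the GFP+ library (0.95 and 1.79). Rps26, a small subunit protein at the mRNA exit, was at 988 and 673 CPM and at 1747 and 684 CPM (0.55 and 1.35). Rpl21 and Rps27 were at -1.21 and -1.08 in TdTom+ cells, but at -0.07 and -0.27 in GFP+ cells. Without cells of over 3000 genes 6 members were higher and 8 lower in both libraries. The members' medians were then -0.63 in TdTom+ and 0.27 in GFP+ cells, beside 0.11 and 0.44 over all genes.

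The paralogs behaved differently from each other across the lineage. Rps27l made up 25.9% (20.3% to 32.1%) of the UMIs of the pair with Rps27 in TdTom+ OPC and 25.7% (19.4% to 32.9%) in GFP+ OPC. In COP/NFOL it was at 27.3% and 27.2%, in MFOL at 10.1% (8.78% to 11.5%) and 13.3% (11.2% to 15.7%), and in MOL at 10.8% (10.3% to 11.4%) and 11.1% (10.2% to 11.9%). The intervals of OPC and COP/NFOL thus lay above those of MFOL and MOL in both libraries. Rpl7l1 was at 17.4% (10.1% to 27.1%) and 19.1% (10.6% to 30.5%) of its pair with Rpl7 in OPC, above 4.33% (3.73% to 4.98%) and 4.12% (3.32% to 5.05%) in MOL. Rpl22l1, paralog of the RNA-binding Rpl22, held 46.0% and 45.6% of its pair in OPC and 45.4% and 46.0% in MOL, with overlapping intervals. In COP/NFOL it was at 63.3% (49.9% to 75.4%) in TdTom+ cells, above the MOL interval (43.9% to 47.0%), and at 41.5% (30.7% to 52.9%) in GFP+ cells. Rpl36al was at 25% and 35.1% of its pair with Rpl36a in OPC and at 28.8% and 29.9% in MOL, again with overlapping intervals. Paralogs and their partners are alike in sequence, so reads of one may have been counted to the other, and Rps27rt and Rpl6l are retrocopies for which this holds most.

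Within labels the 2 subunits moved together from cell to cell. The share of large subunit UMIs and that of small subunit UMIs correlated over the cells of a label with Pearson's r of 0.70 to 0.96, lowest in MOL6b and highest in COP/NFOL. Both shares have the depth of the same cell as denominator, so this is given as a description. Large subunit genes made up between 51.4% and 56.4% of the members' UMIs in every label, highest in OPC, which includes the Rpl13 UMIs described above. The variance of the share over cells was 5.79 to 95.8 times that of binomial counting, smallest in MOL4-5/6. The share was lower in deeper cells in 10 of 12 labels, most so in MFOL1 (Spearman's rho -0.62). Over the 12 labels the level of a member correlated with the sum of the others with a median r of 0.95, and over the 10 labels without MOL2/4 and COP/NFOL with a median r of 0.74. Rpl13 (-0.26), Rps27l (-0.18) and Rps19bp1 (-0.21) were among the genes with r below 0 over the 10 labels, in which all points share the libraries.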

How the data were processed

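The TdTom+ and GFP+ single-cell libraries of the corpus callosum were used, and 3 spinal cord samples were left out. Reads had been aligned by the authors with STAR, and the submitters' processing notes name Cell Ranger 2.1.1 and mm10. The authors limited cells by genes and mitochondrial UMIs, clustered them after integration and transferred labels. In the deposited matrix each value is a signal, a UMI count that was divided by a cell total. Counts were recovered with the divisor that makes the smallest value above 0 in each cell 1 UMI, and 100% of values came out within 0.01 of a whole number. The deposited number of genes per cell (a count), the library and the labels were read from the table of cells, and 35 of its columns were not used.

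UMIs were summed per library and label and given as CPM. Log2 ratios were taken with 1 CPM added, for genes whose mean over the groups compared reached 50 CPM. MOL stands for the merged labels MOL1, MOL2 and MOL5/6. No test was made. Shares have exact Clopper-Pearson intervals and ratios one from the binomial split of the 2 UMI sums. Depth ran from 1577 to 12856 UMIs per cell. Doublets were not called, and an alternative left out 38 cells with over 3000 genes. edgeR 4.0.16 gave TMM factors, with scipy 1.17.1 and pandas 2.3.3 for the rest. The ratios and intervals were tested on simulated Poisson counts, the model that the intervals assume. Spread between cells was not simulated, so the intervals were not tested for it.

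Gene coordinates are from GENCODE vM21, with 83 of 84 members matched. Members named are the 5 highest and 5 lowest by level, by range over labels and by ratio in each comparison, the paralogs with their partners, Rps19bp1 and Rps27a. The stalk genes, the other members called in OPC and Rps26-ps1 were named after their values were seen. Some genes that this rule would name are not reported here. Other genes named were the extremes of the lists, and Eef2, Klk6, Egr2, Fosb and Pdgfra. The members and the gene lists were chosen with earlier results of these data known.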

Additional observations from a re-analysis of the deposited data

Results flagged for a closer look

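The summed level of the ribosomal protein genes in COP/NFOL against MOL had opposite signs in the libraries, with a log2 ratio of -0.32 in TdTom+ (11 cells) and 0.58 in GFP+ cells (8 cells). The difference between the libraries was not tested, since each is 1 sample. Of 82 members, 16 had an interval below 0 in TdTom+ and above 0 in GFP+ cells and 0 the reverse, and these 16 were among 21 such genes of 3420. With TMM scaling the ratios were -0.85 and -0.13.

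Among rows that the rule leaves out, the pseudogene row Rps26-ps1 held 202 UMIs in 189 cells, above the limit that a count of 0 allows (3 UMIs). It had 154 UMIs in TdTom+ and 48 in GFP+ cells, a log2 ratio without added CPM of 0.69 (0.21 to 1.19), for a row under 50 CPM, while Rps26 itself was at -0.05 (-0.12 to 0.02). Reads of a pseudogene and its parent gene cannot be told apart with certainty.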

How the results depend on the processing

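No paired analysis was possible because each origin has 1 library and no result comes from a test. The summed shares of TdTom+ and GFP+ cells were 7.41% and 7.22% as means over cells, 7.16% and 6.97% for canonical members, 7.16% and 7.16% with the mix of labels set equal (log2 ratio 0.000756) and 7.36% and 7.36% without MOL2/4 (-0.00012). Without cells of over 3000 genes the TdTom+ share was 7.31% and the log2 ratio 0.0531. MOL2/4 was the lowest label in every alternative run, while of 12 labels 7 kept their place with means over cells, 3 without cells of over 3000 genes, and 4 each in TdTom+ and in GFP+ cells alone. At 200 CPM, 1 member was higher in TdTom+ cells, Rpl27a.

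In OPC the higher members numbered 2 among canonical ones, 2 with TMM and 3 at 200 CPM, and the lower ones 64 with TMM, 18 in TdTom+ alone and 14 without MOL2/4. In COP/NFOL the higher ones numbered 2 among canonical members, 1 with TMM and 45 in GFP+ alone, and the lower ones 8 without cells of over 3000 genes, 14 with TMM and 28 in TdTom+ alone. In MFOL, 1 was lower (Rpl6l) when scaled to other genes' UMIs, in GFP+ alone and without MOL2/4. In MOL2 against MOL5/6, 9 were lower in GFP+ alone. MOL2/4 against the other MOL2 labels gave 73 to 81 lower. Of the counts and shares above, 141 alternative values were within the spread or 1.5 times the main value and 33 were not. No called value changed sign, but the summed GFP+ ratio of COP/NFOL, 0.58, was -0.13 with TMM. With 1 library of each origin and 8 to 63 cells of OPC, COP/NFOL and MOL2/4 in each, intervals cover counting error only.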

Other observations

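Fau encodes a ribosomal protein of the small subunit, made as a fusion with a ubiquitin-like protein, and carries a name outside the rule. It was at 1320 CPM in TdTom+ and 1235 CPM in GFP+ cells, a log2 ratio of 0.10 (0.04 to 0.15). In MOL2/4 against the other MOL2 labels Fau was lower, at -1.06 and -1.22 in TdTom+ and GFP+ cells. In OPC against MOL it was at -0.86 and -0.72, past the limit on the side of the members called lower.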
